A study of Mus musculus with 2 samples.

Results

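The genes described here make eicosanoids or receive them: Alox5, Alox5ap, Lta4h and Ltc4s of the leukotriene branch, the leukotriene B4 receptor Ltb4r1, Ptgs1, Ptgs2 and Hpgds of the prostanoid branch, and the prostaglandin E2 receptors Ptger2 and Ptger4. They were chosen by symbol, and all 10 were found among the 32285 genes of the count tables. Their RNA was measured in immune cells of the mouse small intestine in a study of Aster-A, a cholesterol transport protein encoded by Gramd1a. Mice of the genotype CD4-Cre; Aster-A F/F carried a Cre recombinase driven by Cd4 sequences, which removes the floxed Aster-A alleles in αβ T cells as they develop in the thymus. They were set against Aster-A F/F littermates without the Cre, so both groups carried the floxed alleles.

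Each group was 1 pool of cells from 3 female mice aged 10 to 12 weeks, fasted for 16 h before an olive oil gavage of 2 h. Lamina propria cells that were live, CD45+, and negative for EPCAM, Ter119 and CD31 were sorted, 100000 per mouse, and each pool became 1 droplet 3′ library. With 1 pool per genotype there is no replicate, so no difference between genotypes has a test and none can be told apart from a difference between pools. Below, CD4-Cre and F/F stand for the pools. Intervals are exact 95% intervals and cover counting error only.

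Eicosanoids are lipid mediators made from arachidonic acid, which cytosolic phospholipase A2 frees from membranes. 5-lipoxygenase (Alox5), presented with its substrate by FLAP (Alox5ap), makes leukotriene A4. Leukotriene A4 hydrolase (Lta4h) turns that into leukotriene B4, a chemoattractant read by Ltb4r1, while leukotriene C4 synthase (Ltc4s) joins it to glutathione to make the cysteinyl leukotrienes. The cyclooxygenases Ptgs1, which many cells make constitutively, and Ptgs2, which is induced by stimulation, make prostaglandin H2. Hpgds turns prostaglandin H2 into prostaglandin D2, and Ptger2 and Ptger4 are receptors for prostaglandin E2 that raise cyclic AMP. In the gut, mast cells, eosinophils and tuft cells are well known sources of several of these mediators.

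Promoters are shown for the prostanoid enzymes because these 3 genes shared macrophage-like cells as their leading class. The sequences are RefSeq windows of GRCm38.p6, from 250 bases before to 50 after the annotated start, and 9 of the 10 genes had one; Alox5ap did not. Capitals mark matches to any of 6 motifs searched on both strands: TATAAA of the TATA box, TGACGT of the cAMP response element, CACGTG of the E-box, TTGCGCAA of C/EBP, GAGGAA of PU.1 and TGANTCA of AP-1. The windows are chr2:36230176-36230475 on the plus strand for Ptgs1, chr6:65144681-65144980 on the minus strand for Hpgds and chr1:150099781-150100080 on the plus strand for Ptgs2.
Ptgs1: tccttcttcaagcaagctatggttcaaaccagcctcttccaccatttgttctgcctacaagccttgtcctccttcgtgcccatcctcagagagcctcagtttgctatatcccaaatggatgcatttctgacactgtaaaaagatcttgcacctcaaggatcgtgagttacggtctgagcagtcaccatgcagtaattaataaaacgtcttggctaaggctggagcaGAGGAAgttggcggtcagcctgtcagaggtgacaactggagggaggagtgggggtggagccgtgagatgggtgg
Hpgds: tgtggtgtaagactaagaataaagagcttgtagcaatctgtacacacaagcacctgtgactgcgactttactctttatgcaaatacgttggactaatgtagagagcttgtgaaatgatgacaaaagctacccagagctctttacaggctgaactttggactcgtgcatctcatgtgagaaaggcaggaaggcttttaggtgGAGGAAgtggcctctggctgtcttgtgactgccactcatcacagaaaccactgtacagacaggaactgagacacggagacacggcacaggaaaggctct
Ptgs2: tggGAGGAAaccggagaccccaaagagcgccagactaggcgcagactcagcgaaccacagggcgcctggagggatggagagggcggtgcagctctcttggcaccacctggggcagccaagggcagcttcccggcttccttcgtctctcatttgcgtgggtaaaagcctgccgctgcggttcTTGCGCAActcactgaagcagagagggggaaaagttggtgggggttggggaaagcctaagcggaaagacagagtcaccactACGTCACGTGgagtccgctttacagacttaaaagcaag

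The windows of Ptgs1 and Hpgds each held GAGGAA and no other motif. GAGGAA was in the windows of 7 of the 9 genes, all but Ptger2 and Ptger4, against 28.3% of 32851 promoters searched in the same way. Ptgs2 was the gene with most kinds of match: besides GAGGAA it held TTGCGCAA, present in 0.183% of promoters, and, in 1 run where their ends overlap by a pair of letters, TGACGT read from the opposite strand and CACGTG, present in 7.51% and 7.15%. TATAAA and TGANTCA, in 13.6% and 7.81% of promoters, matched in none of the 9 windows. A match is a run of letters, not a site, and a window with no match says only that those letters are not in it.

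After filtering, 12507 cells of CD4-Cre and 12500 of F/F were analysed, with a median of 14045 and 15362 UMIs (unique molecules counted) per cell. The pools' libraries held 200580083 and 222838658 UMIs in all and shared 47 cell barcodes. Cells were clustered without the 10 genes and named "-like" from markers, giving 17 classes, of which 15 had at least 30 cells in each pool; the names were rebuilt here and are not the authors'. Plasma-like cells were the most numerous, 6223 in CD4-Cre and 7358 in F/F. Traces of pancreatic RNA differed between the pools: at least 3 acinar markers were present in 13 cells of CD4-Cre and in 4485 of F/F, while gastric markers ran the other way, 334 and 2 cells. The targeted gene Gramd1a was at 42.9 CPM (the gene's UMIs over all UMIs of the class, scaled to a common total) in CD4 T-like cells of CD4-Cre and 56.9 CPM in those of F/F (ratio 0.75, 0.61 to 0.94). The library counts the 3′ end of a transcript and the deleted exons are not given, so this does not check the labels.

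No cell of either pool had 3 or more markers of mast cells, eosinophils, basophils or tuft cells, so no class of them is described below. Cells with little RNA can miss this rule or the cell filter, and free RNA from such cells was not tested. Their absence is thus not shown. A count of 0 limits the share with 3 such markers to about 0.0240% in each pool, taken as 3 over 12507 and 12500 cells. The sort removed EPCAM+ cells, which include tuft cells. Values in plasma-like cells are given beside those of the leading classes. The plasma-like cells' median depth was 16825 UMIs in CD4-Cre and 16531.5 in F/F, above that of every T and innate lymphoid class. A given number of free UMIs is a smaller part of a deeper cell. A low plasma-like CPM, or a low share after thinning to 1500 UMIs, thus sets no limit on free RNA in shallower classes. The unthinned plasma-like share gauges free RNA only if free UMIs per cell are alike across classes, which was not tested. Levels in barcodes of 10 to 100 UMIs are given for Lta4h, Hpgds and Ptger4 only. The part of free RNA in the class levels was not tested for any gene.

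**Figure D1:**
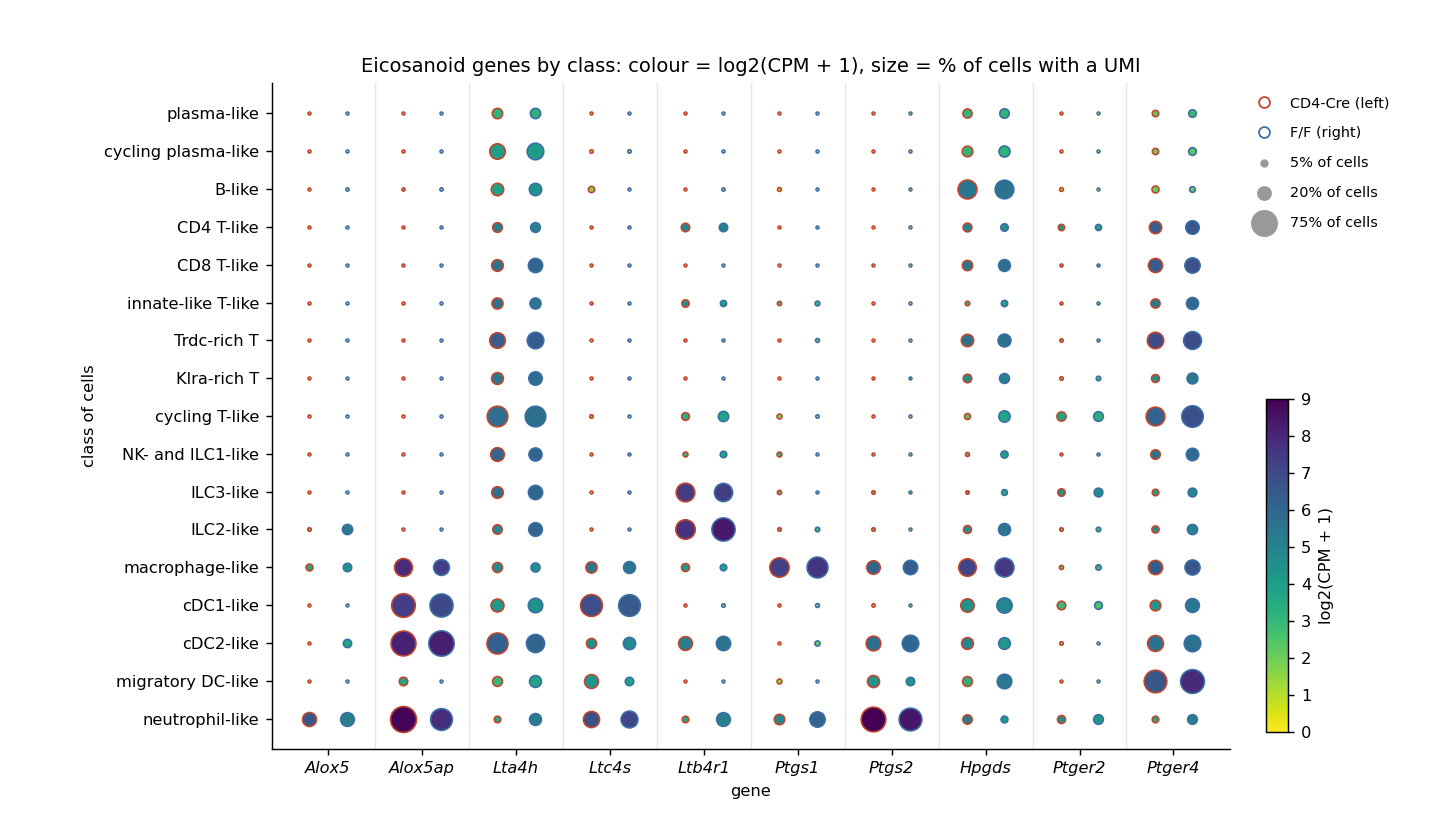
Each gene (columns) has a pair of dots in each class (rows), CD4-Cre on the left with a red edge and F/F on the right with a blue edge; colour is log2(CPM + 1), and area the share of cells with a UMI, drawn at 1% where it was lower. Ptgs1 stands at 152 and 195 CPM in macrophage-like cells and no higher than 7.7 CPM in any other ranked class, whereas Lta4h has visible dots in every row.

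Alox5, the enzyme that starts leukotriene synthesis, was rare: 52 UMIs in 41 cells of CD4-Cre and 89 UMIs in 74 cells of F/F. In macrophage-like cells it stood at 11.4 CPM in CD4-Cre (7.32 to 17, 24 UMIs) and 18.8 CPM in F/F (14.2 to 24.5, 55 UMIs). These cells held 46.2% and 61.8% of all Alox5 UMIs, and the T, ILC3-like, NK- and ILC1-like and cDC1-like classes had none in either pool. In ILC2-like cells 1 UMI in CD4-Cre and 6 in F/F gave 3.71 and 36.8 CPM, too few to place that class, and the plasma-like cells had 0.0456 and 0.0316 CPM. The neutrophil-like cells had 17 UMIs among 39 cells in CD4-Cre and 4 among 18 in F/F. That gave 95.1 CPM in CD4-Cre (55.4 to 152) and 34.8 CPM in F/F (9.48 to 89.1), and the low number of F/F cells keeps this class out of the ranking.

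Alox5ap, whose protein presents arachidonic acid to 5-lipoxygenase, was spread over the myeloid classes. It was at 290.7 CPM in cDC2-like cells of CD4-Cre and 299.9 CPM in those of F/F, with a UMI in 73.1% and 75.8% of cells. Macrophage-like cells had 238.0 and 167.4 CPM, and cDC1-like cells (conventional type 1 dendritic cells) 164.4 and 127.0 CPM. In each pool the cDC2-like level exceeded the macrophage-like one, by 1.22-fold in CD4-Cre (1.03 to 1.44) and 1.79-fold in F/F (1.51 to 2.12). The macrophage-like level averages a pair of unlike clusters described below. A Lyz2-led cluster had 311.0 CPM in CD4-Cre and 258.2 CPM in F/F, and a Pf4-led cluster 120.4 and 52.6 CPM. The part of this mix in the order of the classes was not tested. Plasma-like cells were near the bottom, with 0.627% and 0.353% of cells carrying a UMI; at 1500 UMIs per cell the cDC2-like shares were 31.3% and 34.4% and the plasma-like 0.113% and 0.0410%. The 39 and 18 neutrophil-like cells had 475.5 and 226.1 CPM.

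Ltc4s, which makes the cysteinyl leukotrienes, was led by cDC1-like cells. Its level there was 116.5 CPM in CD4-Cre (108 to 126) and 90.4 CPM in F/F (81.5 to 99.9), present in 56.3% and 55.4% of cells, against 0.418% and 0.353% of plasma-like cells, and at 1500 UMIs per cell in 14.2% and 10.2%, against 0.0484% and 0.0137%. Macrophage-like cells followed at 40.0 and 43.4 CPM, so cDC1-like cells were 2.92-fold (2.32 to 3.71) and 2.08-fold (1.70 to 2.57) above them, and cDC2-like cells at 21.0 and 25.7 CPM. Across 30 class profiles (15 classes in each of the pools) Alox5ap and Ltc4s ran together with Pearson r = 0.93, where no test applies because the profiles share libraries and the depth of each class. No Alox5 UMI was found among 382 and 276 cDC1-like cells, so the exact intervals for the share with a UMI reach 0.961% and 1.33%. They set no limit on the share that expresses so scarce a gene. Even of macrophage-like cells only 5.61% and 8.36% had an Alox5 UMI.

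Lta4h, which makes leukotriene B4, was measured in 14 of the 15 ranked classes, against 5 each for Alox5ap and Ltc4s. Its highest level was in the Trdc-rich T cells, 82.1 CPM in CD4-Cre and 86.5 CPM in F/F, followed by cDC2-like cells at 76.4 and 69.0 CPM and NK- and ILC1-like cells at 69.5 and 67.3 CPM. The first is not separated from the second by its counting interval, 1.07-fold (0.78 to 1.5) and 1.25-fold (0.89 to 1.81). Plasma-like cells had 7.98 and 7.97 CPM, yet being so many they held 36.5% and 39.9% of all Lta4h UMIs. The level in barcodes of 10 to 100 UMIs, where free RNA dominates, was 42.4 and 49.3 CPM, and in those of 150 to 350 UMIs 13.4 and 10.0 CPM; its part in the class levels was not tested.

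Ltb4r1, the receptor for leukotriene B4, was highest in the ILC2-like and ILC3-like classes. In ILC2-like cells it was at 207.6 CPM in CD4-Cre (157 to 270) and 343.3 CPM in F/F (259 to 446), and in ILC3-like cells at 172.6 CPM (138 to 213) and 169.5 CPM (132 to 214). The ILC2-like level was above the ILC3-like one in F/F (2.03-fold, 1.40 to 2.92) but not separated in CD4-Cre (1.20-fold, 0.84 to 1.71). Ltb4r1 had a UMI in 44.8% and 63.4% of ILC2-like cells and in 41.0% and 39.0% of ILC3-like cells, against 0.161% and 0.109% of plasma-like cells; at 1500 UMIs per cell the ILC2-like shares were 16.7% and 36.6% and the ILC3-like 20.4% and 23.7%. No Ltb4r1 UMI was found in CD8 T-like cells of either pool, 362 and 138 cells.

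Among ILC3-like cells, 33.1% in CD4-Cre and 34.0% in F/F had a UMI of the T-cell gene Cd3e. Ltb4r1 was at 195.8 CPM with Cd3e and 159.9 CPM without in CD4-Cre, and at 136.1 and 191.5 CPM in F/F. The intervals overlap in each pool, 136 to 274 with Cd3e and 119 to 210 without in CD4-Cre, and 85.3 to 206 and 141 to 255 in F/F, so no order is separated. In ILC2-like cells 23.9% and 7.32% had a Cd3e UMI, and the ILC2-like cells without one had Ltb4r1 at 204.3 CPM in CD4-Cre and 378.2 CPM in F/F.

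The CD4 T-like cells, at 29.9 CPM of Ltb4r1 in CD4-Cre and 32.9 CPM in F/F, were uneven. Their Il17a-led cluster (210 and 169 cells) had 110.7 and 107.8 CPM, the Foxp3- and Tnfrsf4-led cluster (384 and 242 cells) 24.7 and 19.99 CPM, and the Cd40lg-led cluster (579 and 356 cells) 5.0 and 6.4 CPM. The Il17a-led cells stood 8.30-fold (5.69 to 12.2) and 8.75-fold (5.50 to 14.3) above the other CD4 T-like cells, in both pools alike. The same clusters were ordered in the same way for Ptger2.

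**Figure D2:**
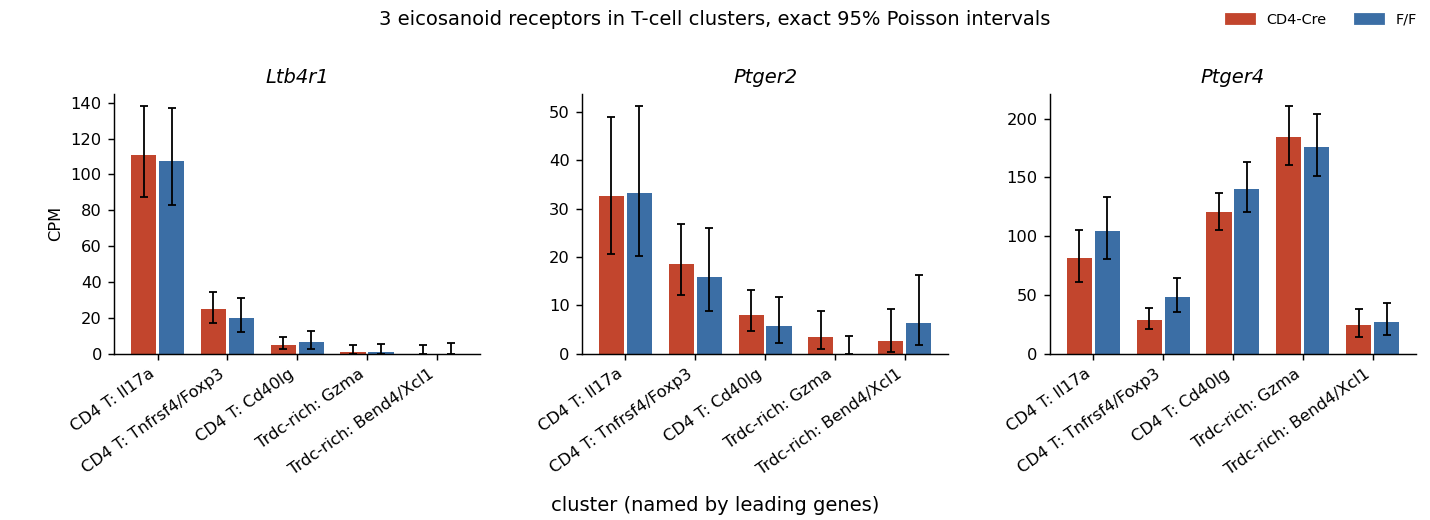
Bars are levels (CPM) of Ltb4r1, Ptger2 and Ptger4 in the T-cell clusters, CD4-Cre beside F/F, with exact 95% intervals from counting. Ltb4r1 is highest in the Il17a-led cluster in both pools (110.7 and 107.8 CPM), and Ptger4 in the Gzma-led Trdc-rich cluster (184.3 and 175.7 CPM).

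Ptgs1, the constitutive cyclooxygenase, and Hpgds, the prostaglandin D2 synthase, had their highest levels in macrophage-like cells. Ptgs1 was at 152.3 CPM in CD4-Cre (136 to 170) and 194.8 CPM in F/F (179 to 211), a UMI in 44.1% and 51.5% of cells (21.7% and 25.2% at 1500 UMIs; 0.241% and 0.367% of plasma-like cells, unthinned). The ranked class next by the mean of both pools, Zbtb16-led innate-like T cells, had 6.28 and 7.50 CPM, and macrophage-like cells stood 24.3-fold (14.5 to 43.8) and 26.0-fold (13.6 to 57.0) above it. Hpgds was at 143.3 CPM (128 to 160) and 183.1 CPM (168 to 199) in macrophage-like cells. Beyond macrophage-like cells, Trdc-rich T cells had 49.7 and 49.97 CPM, CD8 T-like cells 41.1 and 51.2 CPM and B-like cells 43.2 and 47.3 CPM. Plasma-like cells had 7.25 and 8.12 CPM of Hpgds, and barcodes of 10 to 100 UMIs, where free RNA dominates, 26.3 and 24.3 CPM. At 1500 UMIs per cell Hpgds had a UMI in 19.4% and 22.2% of macrophage-like, 6.82% and 7.45% of Trdc-rich T and 1.13% and 1.30% of plasma-like cells.

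The macrophage-like cells fell into a Pf4-, Mrc1- and Cd163-led cluster (189 cells in CD4-Cre, 303 in F/F) and a Lyz2- and Ccl9-led cluster (203 and 247 cells). All 9 macrophage markers were in at least 20% of the cells of each cluster, and their summed level was 12239 CPM in CD4-Cre and 11354 CPM in F/F in the Pf4-led cluster, against 5901 and 7150 CPM in the Lyz2-led. Of 7 monocyte markers, 4 were in at least 20% of Lyz2-led cells and 1 in at least 20% of Pf4-led cells, and they summed to 341 and 388 CPM in the Pf4-led cluster, against 3221 and 2034 CPM in the Lyz2-led. The leading genes of the Lyz2-led cluster hold none of the markers of either list. Of 7 cDC2 markers, 5 were in at least 20% of Lyz2-led cells. Over all macrophage-like cells the cDC2 markers summed to 802 CPM in CD4-Cre and 798 CPM in F/F, against 1242 and 1052 CPM in cDC2-like cells. Values for macrophage-like cells thus cover cells with RNA of monocyte and cDC2 markers as well. The part of those markers in the differences was not tested. The Pf4-led cluster was richer in Hpgds, 299.2 and 317.2 CPM against 46.3 and 77.1 CPM (6.46-fold and 4.11-fold). It was also richer in Ptgs1 (250.8 and 317.2 CPM, against 91.1 and 97.9), in Ltc4s (89.4 and 79.7 CPM, against 9.26 and 14.7) and in Alox5 (23.6 and 33.3 CPM, against 3.86 and 7.34). Alox5ap and Ltb4r1 ran the other way: Alox5ap was at 120.4 and 52.6 CPM in the Pf4-led cluster, against 311.0 and 258.2 CPM in the Lyz2-led, and Ltb4r1 gave the Lyz2-led cluster 3.98-fold and 5.06-fold the level of the Pf4-led. The Lyz2-led cells were deeper, with a median of 6475 UMIs against 4073 over both pools. Clusters were formed without these 10 genes but from the same cells, so no test applies.

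**Figure D3:**
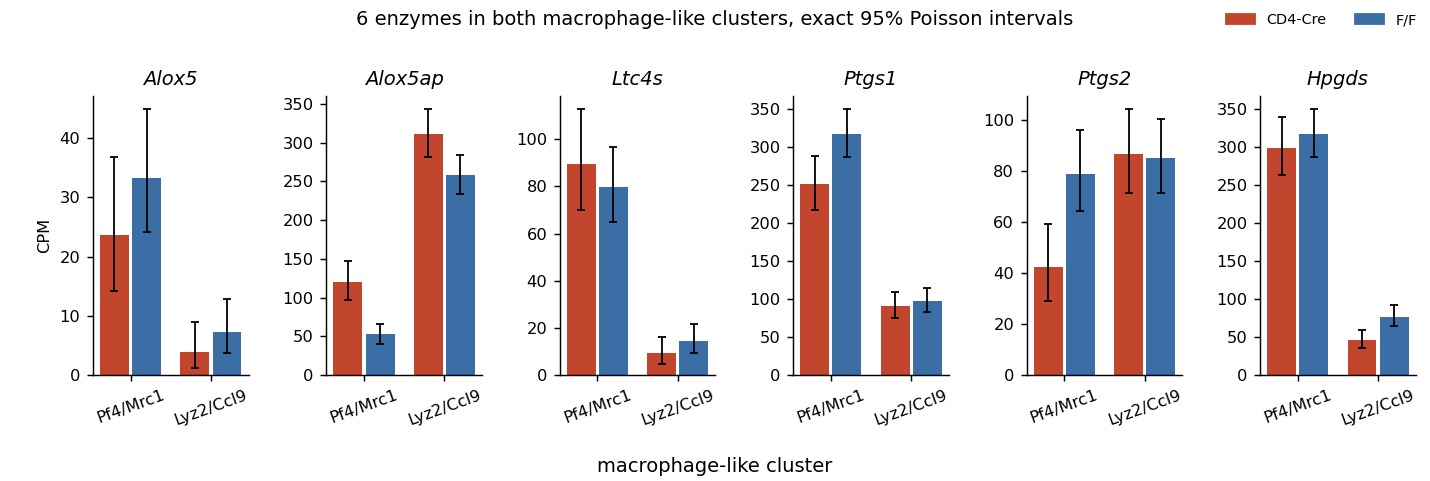
Bars are levels (CPM, 1 axis per gene, with exact 95% counting intervals) of 6 enzymes in the Pf4- and Mrc1-led and the Lyz2- and Ccl9-led macrophage-like clusters, CD4-Cre beside F/F. Hpgds, Ptgs1, Ltc4s and Alox5 are higher in the Pf4-led cluster in both pools, and Alox5ap in the Lyz2-led cluster.

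A UMI of both Ptgs1 and Hpgds was found in 21.2% of macrophage-like cells of CD4-Cre (17.2 to 25.6) and 27.6% of those of F/F (23.9 to 31.6). The product of the separate shares would be 16.0% and 21.9%. Alox5 and Alox5ap were found together in 2.30% and 1.82% of cells, against products of 2.13% and 2.46%, and Ptgs1 and Ptgs2 in 9.18% and 13.3%, against 9.46% and 12.4%. Ptgs1 and Alox5ap were together in fewer cells than their product, 12.2% in each pool against 16.8% and 15.2%. At 1500 UMIs per cell Ptgs1 and Hpgds were together in 5.83% and 7.48%, against products of 4.21% and 5.6%, and Ptgs1 and Alox5ap in 2.50% and 1.97%, against 4.75% and 4.17%. The products treat the macrophage-like cells as a single population. Yet Ptgs1 and Hpgds were both higher in the Pf4-led cluster, and Alox5ap in the Lyz2-led. Shares within each cluster are not given here, and the part of the cluster mix was not tested.

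Ptgs2, the inducible cyclooxygenase, was highest in neutrophil-like cells, which are too few to rank: 621.0 CPM in 39 cells of CD4-Cre (511 to 748) and 356.5 CPM in 18 cells of F/F (256 to 484). Among the ranked classes, macrophage-like cells had 69.5 and 82.3 CPM and cDC2-like cells 51.0 and 64.2 CPM, and these are not separated in either pool (1.36-fold, 0.93 to 2.04, and 1.28-fold, 0.92 to 1.84). No other ranked class had more than 5 CPM, and plasma-like cells had 0.118 and 0.0947 CPM. In the Pf4-led cluster Ptgs2 was at 42.2 CPM in CD4-Cre and 78.9 CPM in F/F (ratio 0.53, 0.35 to 0.80), in the Lyz2-led at 86.4 and 85.1 CPM (1.02).

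Ptger4, a receptor for prostaglandin E2, was led by the Trdc-rich T cells with 119.5 CPM in CD4-Cre (105 to 136) and 118.2 CPM in F/F (102 to 136). Next came CD8 T-like (82.9 and 110.7), cycling T-like (70.5 and 113.7), CD4 T-like (81.4 and 101.3) and macrophage-like cells (83.8 and 94.6 CPM). In CD4-Cre the Trdc-rich T cells stood 1.44-fold above CD8 T-like cells (1.16 to 1.80), in F/F 1.07-fold (0.81 to 1.43), which is not separated. Ptger4 had a UMI in 31.7% and 37.5% of Trdc-rich T cells, 16.7% and 18.6% at 1500 UMIs, against 4.90% and 6.84% of plasma-like cells, 0.693% and 0.983% at 1500 UMIs. The Trdc-rich T cells had a median of 4163.5 and 4454 UMIs. The level in plasma-like cells was 4.09 and 6.48 CPM, and in barcodes of 10 to 100 UMIs 50.5 and 55.2 CPM.

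Within the Trdc-rich T cells the Gzma-led cluster (271 and 207 cells) had Ptger4 at 184.3 CPM in CD4-Cre and 175.7 CPM in F/F. The Bend4- and Xcl1-led cluster (155 and 116 cells) had 24.1 and 26.8 CPM. The Gzma-led cluster stood 7.65-fold (4.78 to 13) and 6.55-fold (3.98 to 11.5) above it. In CD4 T-like cells the Cd40lg-led cluster was highest, 120.3 and 140.2 CPM, the Il17a-led 80.9 and 104.4 CPM, and the Foxp3-led 28.8 and 48.4 CPM. Ptger4 and Ltb4r1 thus had different orders over these clusters in both pools.

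Ptger2, the other prostaglandin E2 receptor, was scarce. ILC3-like cells had the highest level, 20.3 CPM in CD4-Cre from 10 UMIs and 22.1 CPM in F/F from 9 UMIs, and CD4 T-like cells had 15.9 and 15.03 CPM from 66 and 42 UMIs; the counts do not separate the classes (1.28-fold, 0.59 to 2.50, and 1.47-fold, 0.63 to 3.07). Plasma-like cells had 0.0729 and 0.0710 CPM of Ptger2. Within CD4 T-like cells Ptger2 was at 32.7 and 33.2 CPM in the Il17a-led cluster, 18.5 and 15.8 in the Foxp3-led and 8.06 and 5.64 in the Cd40lg-led. The Il17a-led cluster was 2.62-fold (1.51 to 4.44) and 3.30-fold (1.71 to 6.34) above the rest of the CD4 T-like cells.

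The leading class was the same in the CD4-Cre and F/F pools for 9 of the 10 genes; for Alox5 it was macrophage-like in CD4-Cre and ILC2-like in F/F, where 6 UMIs decide. Over the 30 class profiles and 14250 genes compared, the gene with the profile most like it was Zfp385a for Alox5ap (r = 0.98), Acvrl1 for Ltc4s (r = 0.97), Pilra for Ptgs2 (r = 0.93), Synj2 for Ltb4r1 (r = 0.91), Fyb for Ptger4 (r = 0.91), Runx3 for Lta4h (r = 0.89), Plcb4 for Ptger2 (r = 0.89), Stxbp6 for Alox5 (r = 0.85), C5ar2 for Ptgs1 (r = 0.84) and Bach2os for Hpgds (r = 0.75). Profiles share a library within each pool, so r is a description without a test.

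Other genes of the pathway, from a list of 61 of which 60 were found, were led by macrophage-like cells more often than by any other class: 11 of the 29 with at least 20 UMIs in their leading class (37.9%), where macrophage-like cells led 17.7% of 11082 genes ranked in the same way. Pla2g4a, the cytosolic phospholipase that frees arachidonic acid, was at 177 CPM in CD4-Cre and 205 CPM in F/F, Pla2g7, which breaks down platelet-activating factor, at 525 and 556 CPM, and Tbxas1, the thromboxane synthase, at 312 and 405 CPM. Hpgd, which inactivates prostaglandins, was at 157 and 132 CPM in the same cells. Prostacyclin synthase Ptgis was at 42.7 and 39.0 CPM in cDC1-like cells, which held 84.3% and 83.2% of its UMIs. The cysteinyl leukotriene receptor Cysltr2 was at 154 and 163 CPM in innate-like T cells and 112 and 182 CPM in ILC3-like cells. Of the 60, 17 had fewer than 20 UMIs over both pools.

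Between the genotypes, a pair of gene and class was compared where it had at least 20 UMIs over both pools and both pools had at least 30 cells, and called where the ratio of CPM, CD4-Cre over F/F, was at least 1.5 or at most 1/1.5. Of 65 such pairs, 3 were called higher in CD4-Cre and 10 lower, 4.62% and 15.4%, while over all genes and classes 9.68% were called higher and 7.04% lower. The median log2 ratio was −0.14, over 40 ratios below 1 and 25 above. Over all genes the class medians ran from −0.03 in macrophage-like to 0.17 in B-like cells. Ptger4 gave 10 of the 40, and without it the median was −0.08, over 30 below and 23 above. The lower share is above that of all genes and the higher share below it, and 5 of the 10 lower calls came from Ptger4 alone; without Ptger4 there were 3 higher and 5 lower among 53 pairs, 5.66% and 9.43%. The pathway list had 17 higher and 17 lower of 239 pairs (7.11% each). In macrophage-like cells 2 of 27 were higher and 3 lower (7.41% and 11.1%), against 5.89% and 8.45% of all genes there. Of these, Pla2g2d (0.61), Ptges (0.62) and Abcc4 (0.53) were lower and Mgst1 (1.56) and Cbr1 (1.70) higher. Pairs of 1 gene share their libraries, so they are not independent.

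**Figure D4:**
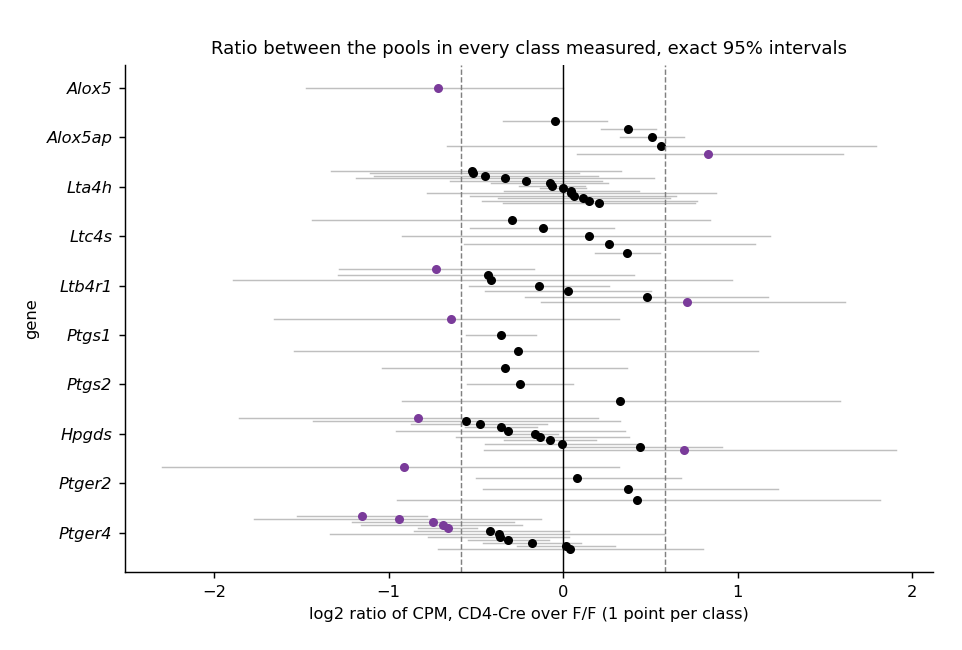
Log2 ratio of CPM, CD4-Cre over F/F, for each gene and class measured, with exact 95% counting intervals; dashed lines mark 1.5-fold and purple points lie past it. 5 of the 13 purple points belong to Ptger4, all below 0.

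Ptger4 was lower in CD4-Cre in 10 of the 12 classes where it was measured, and no class was called higher. The cDC1-like cells differed most, with 18.2 CPM in CD4-Cre from 96 UMIs and 40.4 CPM in F/F from 170 UMIs (ratio 0.45, 0.35 to 0.58). Ptger4 was also past the fold in Klra-rich T cells (0.52, 0.29 to 0.92), innate-like T cells (0.60, 0.43 to 0.82), cycling T-like cells (0.62, 0.45 to 0.85) and plasma-like cells (0.63, 0.56 to 0.71). Over all genes the share called lower was 5.77% in cDC1-like, 6.84% in Klra-rich T, 5.74% in innate-like T, 9.07% in cycling T-like and 5.24% in plasma-like cells. CD4 T-like cells were lower within the fold (0.80, 0.69 to 0.95), and Trdc-rich T cells and cDC2-like cells had ratios of 1.01 and 1.03.

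In cDC1-like cells thinned to 1500 UMIs each, 14 Ptger4 UMIs in CD4-Cre and 13 in F/F were left, a ratio of 0.78 that was within the fold. A UMI was present in 13.4% of CD4-Cre cells and 22.5% of F/F cells, and in 3.69% and 4.36% after thinning. The median depth of cDC1-like cells was 14235.5 UMIs in CD4-Cre and 15569.5 in F/F. Ttc33, which overlaps Ptger4 on the opposite strand, was 10.6 and 7.37 CPM in these cells (1.44, 0.91 to 2.31); whether the counting used strand is not given in the sources used here.

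A list of 8 immediate-early genes (Fos, Fosb, Jun, Junb, Egr1, Ier2, Atf3 and Nr4a1), added after the results were known, was lower in some of the same cells. Its summed level was 1023.7 CPM in CD4-Cre and 1256.3 CPM in F/F cDC1-like cells (0.81). Its ratio was 0.87 in plasma-like, 0.82 in cycling T-like, 0.91 in innate-like T and 0.94 in Klra-rich T cells (0.89 to 1.002). Where the Ptger4 ratio was 0.78, in cycling plasma-like and in NK- and ILC1-like cells, the list was 1.04 and 1.01. The list was 0.94 in CD4 T-like, 0.85 in CD8 T-like and 0.97 in macrophage-like cells, with Ptger4 at 0.80, 0.75 and 0.89. In Trdc-rich T and cDC2-like cells, with Ptger4 at 1.01 and 1.03, the list was 1.08 and 1.01. Over the 15 ranked classes it lay between 0.68 in B-like and 1.33 in ILC2-like cells. Its part in the Ptger4 values was not tested.

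**Figure D5:**
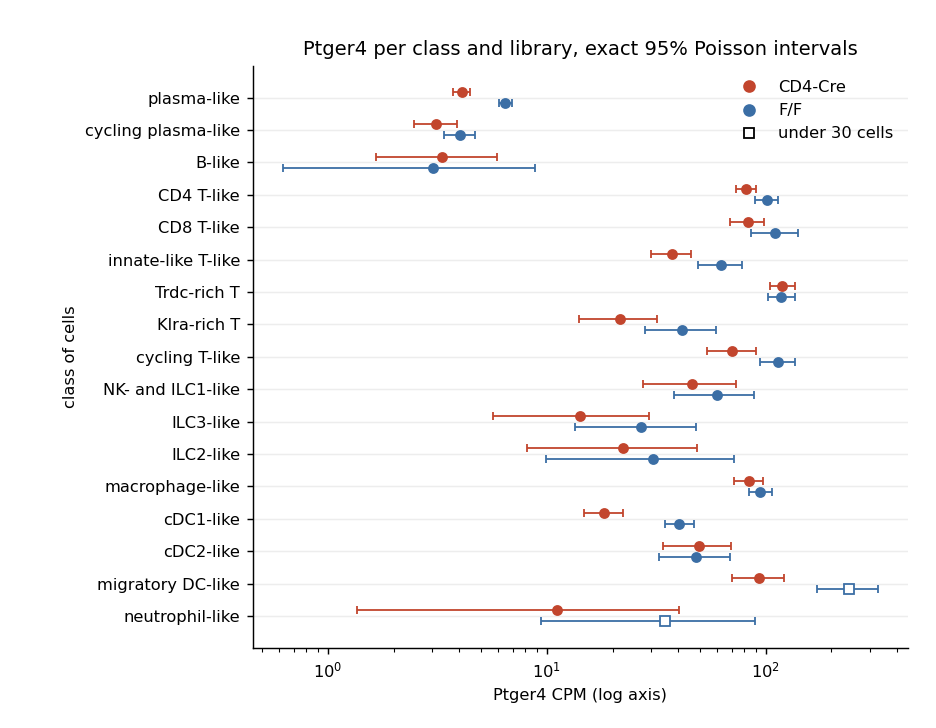
Points are levels of Ptger4 (CPM on a log axis, exact 95% counting intervals) in each class, CD4-Cre above F/F; open squares are pools with fewer than 30 cells of the class. The cDC1-like cells show 18.2 and 40.4 CPM, while Trdc-rich T cells show 119.5 and 118.2 CPM.

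In macrophage-like cells, 2 of the 10 genes measured there were called lower and none higher, against 8.45% and 5.89% of all genes. These were Alox5 (0.61, 0.36 to 0.999) and Ptger2 (0.53, 0.20 to 1.25, 8 and 21 UMIs). Ptgs1 and Hpgds were lower within the fold (both 0.78), and Alox5ap was higher within it (1.42, 1.25 to 1.61). Taken by cluster, Alox5 was within the fold in the Pf4-led cells (0.71, 0.39 to 1.24). Ptgs2 was called lower there (0.53, 0.35 to 0.80), the only 1 of 8 genes measured in that cluster. In the Pf4-led cluster Alox5ap was at 120.4 CPM in CD4-Cre against 52.6 CPM in F/F (2.29, 1.66 to 3.17), where 8.58% of all genes were past the fold upward and 9.36% downward, while the Lyz2-led cluster had a ratio of 1.20 (1.05 to 1.38); with finer clustering (Leiden resolution 2) the macrophage-like ratio was 1.06. Hpgds was 0.60 (0.43 to 0.82) in the Lyz2-led and 0.94 in the Pf4-led cluster; Ltc4s (0.63) and Ptger2 (0.50) were also past the fold in the Lyz2-led, with intervals that include 1, where 10.4% of all genes were lower. Monocyte markers were 3221 CPM in CD4-Cre and 2034 CPM in F/F in that cluster, and their part in these ratios was not tested. The Pf4-led cluster was the smaller of the pair in CD4-Cre and the larger in F/F; the part of that in the class values was not tested.

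Ltb4r1 was lower in ILC2-like cells of CD4-Cre (0.60, 0.41 to 0.89, 56 UMIs in each pool), a class in which 10.5% of all genes were called lower. It was called higher in innate-like T cells (1.63, 0.92 to 3.06), where 8.77% of all genes were. The remaining higher calls were Alox5ap in plasma-like cells (1.78, at 0.365 and 0.205 CPM, with 4.26% of all genes called higher) and Hpgds in cDC2-like cells (1.61, 0.73 to 3.75, with 13% called higher). Ptgs1 in plasma-like cells (0.64) and Hpgds in innate-like T cells (0.56) were lower, both with intervals that include 1. In CD4 T-like cells, none of the 5 genes measured was called, while 7.04% of all genes were called higher and 3.67% lower there, and the intervals of 4 included 1. Within its clusters, 3 of 14 ratios were past the fold. Ptger4 was at 28.8 CPM in CD4-Cre and 48.4 CPM in F/F in the Foxp3-led cluster (0.59, 0.38 to 0.92), where 5.34% of all genes were lower. Hpgds was at 23.2 and 9.67 CPM in the Cd40lg-led cluster (2.39, 1.25 to 4.97, from 46 and 12 UMIs), where 9.8% of all genes were higher, and at 31.2 and 19.9 CPM in the Il17a-led cluster (1.57, 0.74 to 3.48), where 9.64% were. No Lta4h ratio passed 1.5-fold in either direction in any of 14 classes (0.70 to 1.15).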

How the data were processed

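The deposited tables hold raw UMI counts per gene and cell barcode, 1 per pool, made by the authors with Cell Ranger 7.2.0 against mm10 and handled with Seurat 5.0.1, per the submitters' processing notes. Barcodes were kept as cells from 1000 UMIs and 500 genes upward when mitochondrial genes took no more than 10% of UMIs. Cells with over 2% of UMIs on acinar and gastric markers, or at least 3 stromal or epithelial markers, were left out (19 in CD4-Cre, 94 in F/F). Clustering ran in 2 steps (all cells, then non-plasma cells) with scanpy 1.11.5 and igraph 0.11.9 on Python 3.11.15: 2000 variable genes, 30 components, 15 neighbours, Leiden resolution 1; the 10 genes, the pathway list, immunoglobulin genes and free-RNA genes were barred. Settings were set after the data were seen. No doublet caller was run; mixed clusters (1501 cells) were set aside. Levels are UMIs summed per class and pool over the class total (CPM). Intervals used scipy 1.17.1. The ratio interval was tried on counts simulated from cDC1-like cells with counting error only, and the thinning on a small made-up table. Clustering, naming and variation between cells or mice were not simulated. Named genes were the members, pathway genes past 1.5-fold or given by their leading class, and up to 3 genes of most similar profile each. The members and lists were chosen with earlier results of these data known.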

Additional observations from a re-analysis of the deposited data

How the results depend on the processing

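No paired analysis was possible because each genotype was 1 pool with no replicate. The count of pairs called higher in CD4-Cre (3) became 5 with the 10 genes and the pathway genes kept in clustering, 5 without the top 5 cells of each gene and 11 with no minimum except 1 UMI in each pool. The count called lower (10) became 4 at 1500 UMIs per cell, where fewer pairs were measured, and 27 with no minimum. All 10 genes kept their leading class, by the mean of both pools, in 7 alternatives. For Alox5 the class counted was ILC2-like, which rests on the few UMIs given above, so its level in macrophage-like cells is not what was kept. At 1500 UMIs 8 genes kept their class, and 8 did with the cells of acinar, gastric, epithelial or stromal RNA kept, an alternative chosen after seeing the data. Of 1098 other values recomputed, 25 moved beyond their interval and 0 called ratios changed sign. Of the 13 called ratios only 1, Alox5ap in plasma-like cells, was called in every setting that measured it. Each of the others lost its call at least once. Hpgds in cDC2-like cells kept it in 4 of 10 alternatives, Ptgs1 in plasma-like cells in 8 of 11 and Ptger2 in macrophage-like cells in 8 of 10. Ptger4 in cDC1-like cells was called in 12 of 13, at 0.43 to 0.78, and lost the call at 1500 UMIs. With 1 pool per genotype, no setting gives a test.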
